A study of Mus musculus with 8 samples.

Results

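The genes examined here are 39 mouse genes with known roles in meiosis or in germ cells, taken by symbol from the 24542 genes counted in each RNA-seq sample, and all 39 symbols were found. They were picked by known function, with earlier results of these data known. By role they fall into the synaptonemal complex (7 genes), meiotic cohesin (4 genes), the chromosome axis and DNA breaks (6 genes), recombination (11 genes), regulators (6 genes) and other germ cell proteins (5 genes). Reads were counted in TX1072, a hybrid line of female mouse embryonic stem cells (ESCs) with a C57BL/6 (B6) genome from one parent and a castaneus (Cast) genome from the other, in which doxycycline (DOX) induces Xist on the B6 X chromosome. There were 4 groups of 2 samples: unmodified TX1072 cells (Hdac3+/+) and cells with a CRISPR deletion in Hdac3 (Hdac3-/-), sampled before DOX (0 hr) and 24 hr after it was added. All groups carried the inducible Xist allele and were ESCs grown with 2i and LIF. The Hdac3-/- samples come from 2 clones, the labels do not say which clone carries which replicate number, and nothing in the labels says that the Hdac3+/+ samples are separate cultures, so p-values measure the spread between these samples only.

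Meiosis is the pair of divisions that makes haploid gametes. In its first prophase, chromosomes form axes of cohesin and HORMA-domain proteins, DNA breaks are made and repaired by recombination, and homologs are joined along their length by the synaptonemal complex. Most of the genes that build these structures are expressed in germ cells and kept silent in other tissues, while ESCs transcribe some of them at low level. HDAC3 is a histone deacetylase that acts as part of the NCoR and SMRT corepressor complexes.

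Each sample had 6940375 to 17125156 reads on genes, of which 30.05% to 31.59% were assigned to an allele. The targeted gene followed the labels: Hdac3 had 41.2 and 46.5 CPM (counts scaled to a common library size, TMM-normalized, as everywhere below) in Hdac3+/+ at 0 hr and 6.37 and 8.09 CPM in Hdac3-/-, and the log2 fold change was -2.61 (SE 0.18, adjusted p = 0.000428, edgeR). The 8 ESC markers examined summed to 5070 to 5410 CPM over the 4 Hdac3+/+ samples and to 6440 to 6810 CPM over the 4 Hdac3-/- samples, and 1 of the 8 was called, Tbx3, with a log2 fold change of 1.24 at 0 hr. A gene is called here when its adjusted p from edgeR's quasi-likelihood test, with Benjamini-Hochberg adjustment over all genes tested, is under 0.05 and its absolute log2 fold change is above 1.

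The question was which of the 39 genes respond to loss of HDAC3 and which stay off. At 0 hr 34 of the 39 had enough reads to be tested (TPM, reads scaled by exon length and to a common total, above 1 in at least 2 of the 4 samples). Of these, 16 were higher in Hdac3-/- and 0 were lower, where 2.61% of the 13383 genes tested were called higher and 3.55% lower. The 16 genes were Sycp1, Sycp2, Sycp3, Smc1b, Stag3, Hormad1, Dmc1, Tex15, Dazl, Ddx4, Taf7l, Brdt, Tex14, Tex101, Tex19.2 and Clgn. Brdt, Sycp2 and Tex101 passed the filter only through the Hdac3-/- samples and so had to differ, and the other 13 passed it in both genotypes. Without a filter on low counts 17 of the 39 were called, and the median log2 fold change was 0.69 over all 39 and 0.0 over the 19601 genes with a read.

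At 24 hr of DOX the same 34 genes were tested, and 14 were higher in Hdac3-/- and 0 lower, against 2.34% higher and 2.75% lower of the 13965 genes tested. The 14 genes were all among the 16 of 0 hr, and the 2 that missed were Tex14, with an adjusted p of 0.0671, and Tex101, with an adjusted p of 0.0775 (edgeR). Samples of the genotypes did not overlap in 19 of the 34 genes, in that all 4 Hdac3-/- samples lay above all 4 Hdac3+/+ samples, which held for 16.3% of all genes tested. These 19 were the 16 called genes with Stra8, Tex12 and Tex19.1. The 16 were called on samples used here, so their place among the 19 follows in part from the call. Reads on the 39 genes made up 0.0413% to 0.0491% of all reads in Hdac3+/+ samples and 0.111% to 0.125% in Hdac3-/- samples. Much of this rise was Dazl, with a mean of 70.0 CPM in Hdac3+/+ and 569.0 CPM in Hdac3-/- at 0 hr. Together the 39 genes had 443 to 529 CPM in the Hdac3+/+ samples and 1240 to 1400 CPM in the Hdac3-/- samples. In bulk RNA, more cells that express a gene and more RNA per cell cannot be told apart.

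**Figure D1:**
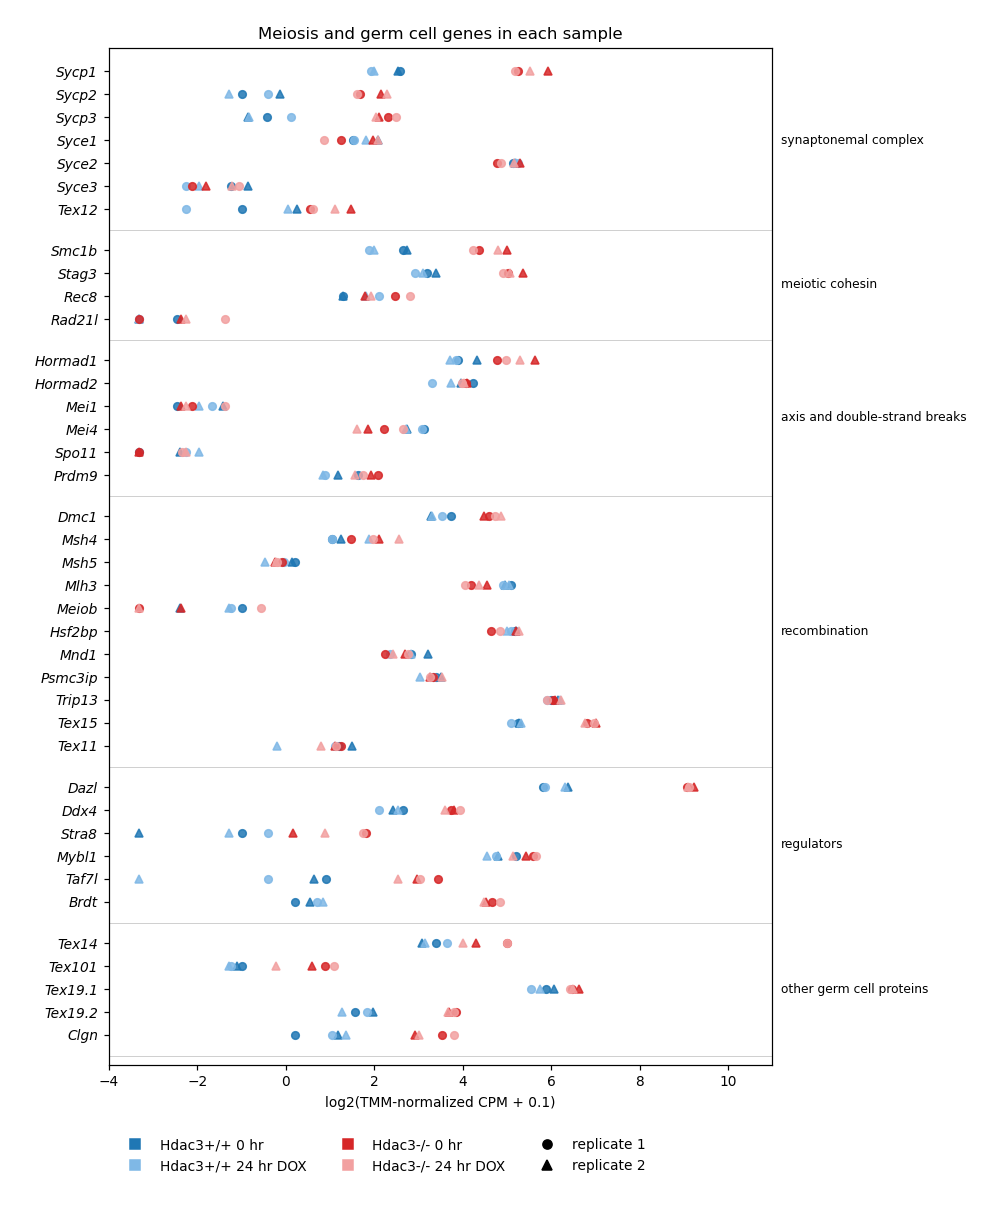
TMM-normalized CPM of the 39 genes in each of the 8 samples, on a log2 scale with 0.1 added, grouped by role; circles are replicate 1 and triangles replicate 2. Dazl, Brdt, Sycp1, Sycp3 and Stag3 show red Hdac3-/- points to the right of every blue Hdac3+/+ point, while Trip13, Hsf2bp, Syce1 and Syce2 show them mixed.

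Promoter sequences are shown for Brdt, Sycp1, Dazl, Sycp3, Sycp2 and Taf7l, the 6 called genes with a window that had the highest fold changes at 0 hr, and for Rad21l, which stayed near 0 reads, so that letters shared by many germline gene promoters can be read in place. RefSeq windows of 300 bases, from 250 bases before to 50 after the annotated start, were found for 33 of the 39 genes on GRCm38.p6, 14 of them called. They are written 5′ to 3′ on the gene's strand. Capitals mark CACGTG, the E-box letters that MAX and MGA heterodimers bind, and TCCCGC or its reverse complement GCGGGA, letters bound by E2F6, another factor known from germline gene promoters.
Dazl: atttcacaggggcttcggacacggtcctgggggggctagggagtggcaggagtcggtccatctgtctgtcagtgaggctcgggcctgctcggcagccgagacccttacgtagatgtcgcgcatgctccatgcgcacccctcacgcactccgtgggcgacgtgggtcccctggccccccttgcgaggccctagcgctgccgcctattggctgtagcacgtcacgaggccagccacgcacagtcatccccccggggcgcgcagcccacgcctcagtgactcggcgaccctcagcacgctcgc
Brdt: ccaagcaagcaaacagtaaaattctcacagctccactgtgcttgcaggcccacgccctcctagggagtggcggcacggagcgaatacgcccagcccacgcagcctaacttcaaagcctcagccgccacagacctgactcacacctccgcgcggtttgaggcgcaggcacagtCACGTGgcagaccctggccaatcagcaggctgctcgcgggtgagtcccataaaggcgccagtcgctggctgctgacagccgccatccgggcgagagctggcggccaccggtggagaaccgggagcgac
Sycp1: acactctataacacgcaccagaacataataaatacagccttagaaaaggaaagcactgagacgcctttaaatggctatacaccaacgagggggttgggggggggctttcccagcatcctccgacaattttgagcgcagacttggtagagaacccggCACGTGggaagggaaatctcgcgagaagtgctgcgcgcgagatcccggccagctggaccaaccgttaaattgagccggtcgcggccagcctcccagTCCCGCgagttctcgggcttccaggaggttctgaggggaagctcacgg
Sycp3: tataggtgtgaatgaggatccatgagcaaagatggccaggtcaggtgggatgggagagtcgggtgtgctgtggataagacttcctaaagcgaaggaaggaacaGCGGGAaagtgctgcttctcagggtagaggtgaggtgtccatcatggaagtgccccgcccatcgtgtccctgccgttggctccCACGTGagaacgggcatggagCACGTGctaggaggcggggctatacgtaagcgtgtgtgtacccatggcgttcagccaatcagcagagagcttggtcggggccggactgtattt
Sycp2: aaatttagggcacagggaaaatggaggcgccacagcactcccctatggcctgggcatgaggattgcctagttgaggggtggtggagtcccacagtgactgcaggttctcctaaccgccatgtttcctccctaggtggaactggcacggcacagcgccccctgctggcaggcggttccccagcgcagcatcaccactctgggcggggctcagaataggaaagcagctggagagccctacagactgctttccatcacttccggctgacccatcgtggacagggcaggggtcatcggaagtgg
Taf7l: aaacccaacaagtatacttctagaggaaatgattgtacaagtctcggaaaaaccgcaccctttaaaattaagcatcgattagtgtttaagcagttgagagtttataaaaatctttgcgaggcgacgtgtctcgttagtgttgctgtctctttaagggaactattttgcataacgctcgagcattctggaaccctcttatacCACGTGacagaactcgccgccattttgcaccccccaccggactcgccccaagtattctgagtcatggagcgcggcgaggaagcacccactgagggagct
Rad21l: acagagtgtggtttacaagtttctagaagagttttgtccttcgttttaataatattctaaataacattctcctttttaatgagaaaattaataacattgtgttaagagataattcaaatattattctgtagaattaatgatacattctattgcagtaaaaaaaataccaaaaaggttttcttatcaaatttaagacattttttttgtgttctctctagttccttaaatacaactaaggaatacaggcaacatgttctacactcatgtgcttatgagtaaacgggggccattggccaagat

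The windows lie at chr17:50293571-50293870 on the minus strand (Dazl), chr5:107330944-107331243 on the plus strand (Brdt), chr3:102936051-102936350 on the minus strand (Sycp1), chr10:88459337-88459636 on the plus strand (Sycp3), chr2:178407609-178407908 on the minus strand (Sycp2), chrX:134476441-134476740 on the minus strand (Taf7l) and chr2:151668484-151668783 on the minus strand (Rad21l). CACGTG stands 78 bases before the start of Brdt, 94 before that of Sycp1, 49 before that of Taf7l, and 64 and 43 before that of Sycp3, and neither set of letters occurs in the windows of Dazl, Sycp2 and Rad21l. CpG dinucleotides number 28 in the window of Dazl, 10 in that of Sycp2 and 2 in that of Rad21l. Among windows not shown, that of the called gene Tex19.2 also has 2 and neither set of letters, and that of Mei1, which stayed off, has 8.

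CACGTG was present in the windows of 7 of the 14 called genes with a window (50%: Hormad1, Sycp1, Brdt, Stag3, Sycp3, Ddx4 and Taf7l) and of 2 of the 19 others (10.5%: Syce2 and Tex12). It was present in 7.15% of the 32851 windows of the table, and in at least 1 window of 8.09% of 27025 genes. The E2F letters, searched on both strands, were present in 8 of 14 called genes (57.1%), in 9 of 19 others (47.4%) and in 22.0% of genes, or 20% of windows. The search letters can share 1 base with each other, but they overlapped in 0 windows of these genes. Median CpG counts per gene were 20.5 for the called genes, 16 for the others and 8.0 for all genes. These are counts of letters without a test, the motifs were picked with the expression results known, and a match does not show that a factor binds there.

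Among the synaptonemal complex genes, those of the lateral element and transverse filament were called higher and those of the central element were not called. Of the latter, Tex12 was nonetheless higher in all 4 Hdac3-/- samples, and Syce3 had only 1 to 5 reads. Sycp1, the transverse filament that spans the gap between homologs, had 5.85 and 5.72 CPM in Hdac3+/+ at 0 hr and 38.1 and 60.6 CPM in Hdac3-/-. After 24 hr of DOX it had 3.69 and 3.87 CPM against 36.0 and 46.0 CPM. All 4 Hdac3-/- samples were above all Hdac3+/+ samples by a wide margin, with the replicate 2 knockout samples highest. The log2 fold change was 3.09 (SE 0.252, adjusted p = 0.000748, edgeR) at 0 hr and 3.44 (SE 0.275, adjusted p = 0.000294) at 24 hr.

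Sycp3, a coiled-coil protein of the lateral element, had 0.65 and 0.454 CPM in Hdac3+/+ and 4.87 and 4.19 CPM in Hdac3-/- at 0 hr, from 8 and 5 against 75 and 45 reads. At 24 hr the values were 0.977 and 0.465 CPM against 5.57 and 4.04 CPM. Genotypes did not overlap at either time, and the log2 fold change was 3.01 (SE 0.412, adjusted p = 0.00447, edgeR) at 0 hr and 2.66 (SE 0.429, adjusted p = 0.00536) at 24 hr. Leaving out replicate 2 of Hdac3+/+ at 24 hr brought the latter to an adjusted p of 0.0555.

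Sycp2, its partner in the lateral element, was scarce in Hdac3+/+, with 0.406 and 0.817 CPM at 0 hr and 0.651 and 0.31 CPM at 24 hr, from 2 to 9 reads. In Hdac3-/- it had 3.12 and 4.37 CPM at 0 hr and 2.97 and 4.8 CPM at 24 hr. Every Hdac3-/- sample was higher than every Hdac3+/+ sample, with a log2 fold change of 2.61 (SE 0.477, adjusted p = 0.0127, edgeR) and of 2.91 (SE 0.545, adjusted p = 0.0105) at 0 and 24 hr. The call was lost without replicate 1 of Hdac3+/+ at 0 hr (adjusted p = 0.0845), and without replicate 1 (0.0674) or replicate 2 (0.0901) of Hdac3+/+ at 24 hr.

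The central element genes behaved differently from each other. Syce2 was one of the higher expressed of the 39 genes in ESCs, at 61.5 ± 1.12 TPM (SD, n = 2) in Hdac3+/+ and 54.0 ± 12.8 TPM in Hdac3-/- at 0 hr, and its samples overlapped (log2 fold change -0.1, SE 0.181, adjusted p = 0.76, edgeR). Syce1 had 8.0 ± 1.95 TPM and 6.65 ± 2.31 TPM (SD, n = 2 each) and a log2 fold change of -0.2 (SE 0.392, adjusted p = 0.782, edgeR), again with overlap. Tex12 had 0.406 and 1.09 CPM in Hdac3+/+ and 1.36 and 2.7 CPM in Hdac3-/- at 0 hr, and 0.108 and 0.929 CPM against 1.44 and 2.07 CPM at 24 hr. Its genotypes did not overlap, but with 1 to 29 reads the log2 fold change of 1.43 had an SE of 0.606 and an adjusted p of 0.162 (edgeR). At 0 hr it passed only without replicate 1 of Hdac3-/-, with a log2 fold change of 1.87 (adjusted p = 0.012), and the value at 24 hr was 1.89 (SE 0.842, adjusted p = 0.179), or 0.0402 without a filter on low counts. Syce3 had 1 to 5 reads in each of the 8 samples.

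Of the meiotic cohesin subunits, Smc1b and Stag3 rose, Rec8 was not called and Rad21l stayed off. Smc1b, the meiotic counterpart of Smc1a, had 6.18 and 6.62 CPM in Hdac3+/+ and 20.5 and 31.8 CPM in Hdac3-/- at 0 hr. After 24 hr of DOX it had 3.58 and 3.87 CPM against 18.7 and 27.6 CPM. Both knockout replicates were above all Hdac3+/+ samples at both times, with log2 fold changes of 2.03 (SE 0.248, adjusted p = 0.00303, edgeR) and 2.63 (SE 0.298, adjusted p = 0.00118).

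Stag3, the subunit that binds the kleisin of the meiotic ring, had 9.02 and 10.4 CPM in Hdac3+/+ and 32.5 and 41.0 CPM in Hdac3-/- at 0 hr, and 7.49 and 8.52 CPM against 30.0 and 33.4 CPM at 24 hr. Replicates lay close together within each genotype and the genotypes did not overlap. The log2 fold change was 1.92 (SE 0.185, adjusted p = 0.00143, edgeR) at 0 hr and 1.99 (SE 0.182, adjusted p = 0.000473) at 24 hr. Rec8, the kleisin that holds sister chromatids together in meiosis, had 2.36 CPM in each Hdac3+/+ sample at 0 hr and 5.46 and 3.35 CPM in Hdac3-/-, a log2 fold change of 0.92 (SE 0.359, adjusted p = 0.133, edgeR). At 24 hr its samples overlapped, and it passed at 0 hr only without replicate 2 of Hdac3-/- (log2 fold change 1.21, adjusted p = 0.0115). Rad21l, the other meiotic kleisin, had 0 to 3 reads in every sample.

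Among the genes of the axis and of DNA break formation, Hormad1 alone was called. Hormad1, which loads on unsynapsed axes and promotes break formation, was already expressed in Hdac3+/+, with 14.8 and 20 CPM at 0 hr and 14.3 and 13 CPM at 24 hr. Hdac3-/- samples had 27.5 and 50 CPM at 0 hr and 31.3 and 39 CPM at 24 hr, so the lowest knockout sample was above the highest Hdac3+/+ sample, and replicate 2 was the higher knockout at both times. The log2 fold change was 1.15 (SE 0.285, adjusted p = 0.0357, edgeR) at 0 hr and 1.35 (SE 0.289, adjusted p = 0.0177) at 24 hr. Without replicate 2 of Hdac3-/- the value at 0 hr fell to 0.67 (adjusted p = 0.00337), and the adjusted p was 0.151 and 0.0537 without replicates 1 and 2 of Hdac3+/+ and 0.0565 with voom and limma. At 24 hr it was 0.114 and 0.13 without replicates 1 and 2 of Hdac3+/+ (edgeR).

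Its paralog Hormad2 had 18.8 and 15.6 CPM in Hdac3+/+ and 16.7 and 16.9 CPM in Hdac3-/- at 0 hr, with a log2 fold change of -0.03 (SE 0.174, adjusted p = 0.934, edgeR), and the samples overlapped. Mei4, needed for break formation, had 8.61 and 6.62 CPM in Hdac3+/+ and 4.55 and 3.53 CPM in Hdac3-/-, and at 24 hr 8.36 and 6.51 CPM against 6.14 and 2.95 CPM. It was 1 of the 2 genes of the 34 tested with all knockout samples below all Hdac3+/+ samples, which held for 16.6% of all genes tested. It had a log2 fold change of -0.9 (SE 0.28, adjusted p = 0.072, edgeR) at 0 hr. It passed only without replicate 1 of Hdac3-/- at 0 hr (log2 fold change -1.1, adjusted p = 0.00831). Prdm9, the methyltransferase that sets the position of breaks, had 2.59 ± 0.587 CPM and 3.94 ± 0.309 CPM (SD, n = 2 each) and was not called (log2 fold change 0.61, SE 0.332, adjusted p = 0.271, edgeR). Spo11, which makes the breaks, had 0 or 1 read in every sample, and Mei1 had 1 to 3 reads.

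Recombination genes were mostly expressed in Hdac3+/+ cells, and 2 of the 11, Dmc1 and Tex15, rose. Dmc1, the recombinase of meiosis, had 13.2 and 9.62 CPM in Hdac3+/+ and 24.2 and 22.2 CPM in Hdac3-/- at 0 hr, and 11.5 and 9.76 CPM against 26.5 and 29.1 CPM at 24 hr. The genotypes did not overlap at either time, and the log2 fold change was 1.03 (SE 0.198, adjusted p = 0.0152, edgeR) at 0 hr, just above the limit of 1, and 1.38 (SE 0.189, adjusted p = 0.00274) at 24 hr. Without replicate 2 of Hdac3+/+ at 0 hr it was 0.82 (adjusted p = 0.103), and without replicate 1 of Hdac3-/- 0.96 (adjusted p = 0.000118).

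Tex15, needed for recombination and for transposon silencing in male germ cells, had 37.7 and 38.8 CPM in Hdac3+/+ and 112.0 and 130.0 CPM in Hdac3-/- at 0 hr, and 34.1 and 40.1 CPM against 126.0 and 109.0 CPM at 24 hr. Samples of each genotype were close, and those of Hdac3-/- were well above the rest. The log2 fold change was 1.66 (SE 0.121, adjusted p = 0.00047, edgeR) at 0 hr and 1.67 (SE 0.129, adjusted p = 0.00024) at 24 hr.

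Trip13, an ATPase that remodels HORMA-domain proteins and also works in mitosis, was at 66.0 ± 1.87 TPM in Hdac3+/+ and 61.6 ± 0.136 TPM in Hdac3-/- (SD, n = 2 each), with a log2 fold change of -0.01 (SE 0.111, adjusted p = 0.96, edgeR). Hsf2bp, a BRCA2-binding protein, was at 34.5 ± 0.876 TPM and 27.5 ± 7.25 TPM (SD, n = 2 each), and Psmc3ip, a cofactor of Dmc1, at 20.2 ± 0.208 TPM and 17 ± 0.659 TPM (SD, n = 2 each). Both were tested and not called, with log2 fold changes of -0.24 (SE 0.191) and -0.15 (SE 0.196). Mnd1, the partner of Psmc3ip, had 6.99 and 9.16 CPM in Hdac3+/+ and 4.61 and 6.33 CPM in Hdac3-/- at 0 hr (log2 fold change -0.57, SE 0.277, adjusted p = 0.218, edgeR), and overlapped at 24 hr (0.02, SE 0.294).

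Mlh3, which acts in crossover formation and in mismatch repair, was the other gene with all knockout samples below all Hdac3+/+ samples. It had 34.0 and 30.8 CPM in Hdac3+/+ and 18.2 and 23.2 CPM in Hdac3-/- at 0 hr, and 29.9 and 32.8 CPM against 16.6 and 20.7 CPM at 24 hr. Its log2 fold change of -0.65 (SE 0.168, adjusted p = 0.0414, edgeR) at 0 hr and -0.75 (SE 0.172, adjusted p = 0.0238) at 24 hr passed the p threshold and not the fold limit. Msh4, which stabilizes crossover intermediates with Msh5, had 2.11 ± 0.225 CPM and 3.42 ± 1.08 CPM (SD, n = 2 each; log2 fold change 0.69, SE 0.377, adjusted p = 0.271, edgeR), and X-linked Tex11, which also promotes crossovers, had 2.46 ± 0.373 CPM and 2.16 ± 0.161 CPM (SD, n = 2 each; log2 fold change -0.17, SE 0.359). Msh5 had 4 to 13 reads and was not tested. Meiob, which binds single-stranded DNA at breaks, had 0 to 6 reads in every sample.

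Regulators included Dazl, the gene of the 39 with the highest level in Hdac3-/-, and Brdt, the called gene with the largest fold change at 0 hr. Dazl, an RNA-binding protein that drives translation of germ cell mRNAs, had 56.2 and 83.8 CPM in Hdac3+/+ and 536.0 and 601.0 CPM in Hdac3-/- at 0 hr. With DOX for 24 hr it had 58.3 and 79.9 CPM against 554.0 and 543.0 CPM. The lowest knockout sample was thus far above the highest Hdac3+/+ sample, and the log2 fold change was 3.03 (SE 0.18, adjusted p = 0.000324, edgeR) at 0 hr and 3.0 (SE 0.199, adjusted p = 0.000119) at 24 hr. Per length, Dazl had 61.7 ± 14.6 TPM in Hdac3+/+ and 475.0 ± 33.5 TPM in Hdac3-/- at 0 hr (SD, n = 2 each). That made it the highest of the 39 genes in Hdac3-/-, ahead of Tex19.1 at 161.0 ± 11.6 TPM, whereas in Hdac3+/+ Tex19.1 was highest at 114.0 ± 5.39 TPM and Trip13, Dazl and Syce2 followed, apart by less than the SD of Dazl.

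Brdt, a testis bromodomain protein that binds acetylated histones, was low in Hdac3+/+, with 1.06 and 1.36 CPM at 0 hr and 1.52 and 1.7 CPM at 24 hr, from 11 to 15 reads per sample. In Hdac3-/- it had 25.1 and 22.8 CPM at 0 hr and 28.6 and 22.3 CPM at 24 hr. No other called gene of the 39 had a larger fold change at 0 hr: the log2 value was 4.31 (SE 0.244, adjusted p = 0.000324, edgeR), and 3.98 (SE 0.241, adjusted p = 0.000105) at 24 hr. Its TPM went from 0.798 ± 0.107 to 15.0 ± 1.2 (SD, n = 2 each), below that of Sycp1 at 44.2 ± 13.8 TPM and of Tex15 at 40.2 ± 3.94 TPM in Hdac3-/-.

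Taf7l, an X-linked paralog of the general transcription factor subunit Taf7, had 1.79 and 1.45 CPM in Hdac3+/+ and 10.8 and 7.72 CPM in Hdac3-/- at 0 hr. After DOX it had 0.651 and 0.0 CPM against 8.06 and 5.68 CPM, from 6 and 0 reads in Hdac3+/+. The genotypes did not overlap, and the log2 fold change was 2.52 (SE 0.319, adjusted p = 0.00334, edgeR) at 0 hr and 4.15 (SE 0.616, adjusted p = 0.00363) at 24 hr, where the size rests on few Hdac3+/+ reads and ran from 3.37 without replicate 2 of Hdac3+/+ to 9.22 without its replicate 1. Ddx4, the Vasa RNA helicase of germ granules, had 6.18 and 5.26 CPM in Hdac3+/+ and 13.3 and 13.8 CPM in Hdac3-/- at 0 hr, and 4.23 and 5.73 CPM against 15.3 and 12 CPM at 24 hr. It rose with no overlap, by a log2 fold change of 1.24 (SE 0.212, adjusted p = 0.01, edgeR) and 1.47 (SE 0.231, adjusted p = 0.00473). Its adjusted p was 0.0771 without replicate 2 of Hdac3+/+ at 0 hr, and 0.0664 without replicate 1 of Hdac3+/+ at 24 hr.

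Stra8, which germ cells need to enter meiosis, had 5 and 0 reads in Hdac3+/+ and 53 and 11 reads in Hdac3-/- at 0 hr, or 0.406 and 0.0 CPM against 3.44 and 1.02 CPM. The 24 hr samples had 0.651 and 0.31 CPM against 3.26 and 1.75 CPM. Like Brdt, Sycp2 and Tex101, it passed the filter on low values at 0 hr only through the Hdac3-/- samples. The genotypes did not overlap, but the knockout replicates were far apart, and the log2 fold change of 3.38 at 0 hr (SE 0.962, adjusted p = 0.0558, edgeR) and of 2.3 at 24 hr (SE 0.897, adjusted p = 0.13) missed the threshold. It passed at 0 hr with DESeq2 (adjusted p = 0.0328), with all 8 samples in the fit (0.0436), without a filter on low counts (1.53e-05), and without replicate 2 of Hdac3-/- (1.68e-07) or replicate 1 of Hdac3+/+ (0.046). At 24 hr it passed without a filter (0.00267) and with the 4 samples of that time alone (0.0473). Mybl1, the transcription factor A-MYB of pachytene spermatocytes, was well expressed at 32.1 ± 6.41 CPM in Hdac3+/+ and 45.5 ± 3.29 CPM in Hdac3-/- (SD, n = 2 each), with a log2 fold change of 0.51 (SE 0.164, adjusted p = 0.0812, edgeR).

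Clgn and Tex19.2 rose at both times among the other germ cell proteins. Clgn, a testis chaperone of the endoplasmic reticulum, had 1.06 and 2.18 CPM in Hdac3+/+ and 11.5 and 7.53 CPM in Hdac3-/- at 0 hr, and 1.95 and 2.48 CPM against 13.8 and 7.97 CPM at 24 hr. Genotypes stood apart at both times (log2 fold change 2.58, SE 0.394, adjusted p = 0.00653 at 0 hr and 2.31, SE 0.425, adjusted p = 0.00972 at 24 hr, edgeR). The adjusted p at 24 hr was 0.109 and 0.0694 without replicates 1 and 2 of Hdac3+/+.

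Tex19.2 and Tex19.1 are neighbouring paralogs on chromosome 11 that act against transposons in germ cells, and reads shared between them could blur their counts. Tex19.2 had 2.84 and 3.81 CPM in Hdac3+/+ and 14.4 and 12.9 CPM in Hdac3-/- at 0 hr, and 3.47 and 2.32 CPM against 13.8 and 12.6 CPM at 24 hr. It rose without overlap (log2 fold change 2.04, SE 0.246, adjusted p = 0.00284 at 0 hr and 2.15, SE 0.258, adjusted p = 0.00154 at 24 hr, edgeR). Tex19.1, already high in Hdac3+/+ with 59.0 and 67.2 CPM, had 88.7 and 99.7 CPM in Hdac3-/- at 0 hr, and 46.7 and 53.6 CPM against 86.3 and 89.5 CPM at 24 hr. Its knockout samples were all higher, and its log2 fold change of 0.58 (SE 0.12, adjusted p = 0.0189, edgeR) and of 0.81 (SE 0.116, adjusted p = 0.00323) passed the p threshold below the fold limit.

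Tex14, a protein of the intercellular bridges of germ cells, had 10.5 and 8.35 CPM in Hdac3+/+ and 31.8 and 19.6 CPM in Hdac3-/- at 0 hr, and 12.5 and 8.83 CPM against 32.0 and 16 CPM at 24 hr. Replicate 1 was the higher knockout at both times, and no knockout sample overlapped with Hdac3+/+. The log2 fold change was 1.46 (SE 0.259, adjusted p = 0.0113, edgeR) at 0 hr and 1.16 (SE 0.361, adjusted p = 0.0671) at 24 hr. At 0 hr the adjusted p was 0.0564 without replicate 2 of Hdac3+/+. At 24 hr it passed with DESeq2 (0.0096), without a filter on low counts (1.27e-06) and without replicate 2 of Hdac3-/- (0.0108). Tex101, a germ cell surface glycoprotein, had 5 and 4 reads in Hdac3+/+ and 27 and 15 reads in Hdac3-/- at 0 hr (0.406 and 0.363 against 1.75 and 1.4 CPM), and 3 and 2 against 21 and 7 reads at 24 hr. Its log2 fold change of 2.02 (SE 0.534, adjusted p = 0.0439, edgeR) was lost in 5 of 11 alternative fits, with an adjusted p of 0.214 in DESeq2, 0.0614 with voom and limma, 0.0845 without replicate 1 of Hdac3-/-, and 0.221 and 0.231 without replicates 1 and 2 of Hdac3+/+. At 24 hr it passed without replicate 2 of Hdac3-/- (0.0377).

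**Figure D2:**
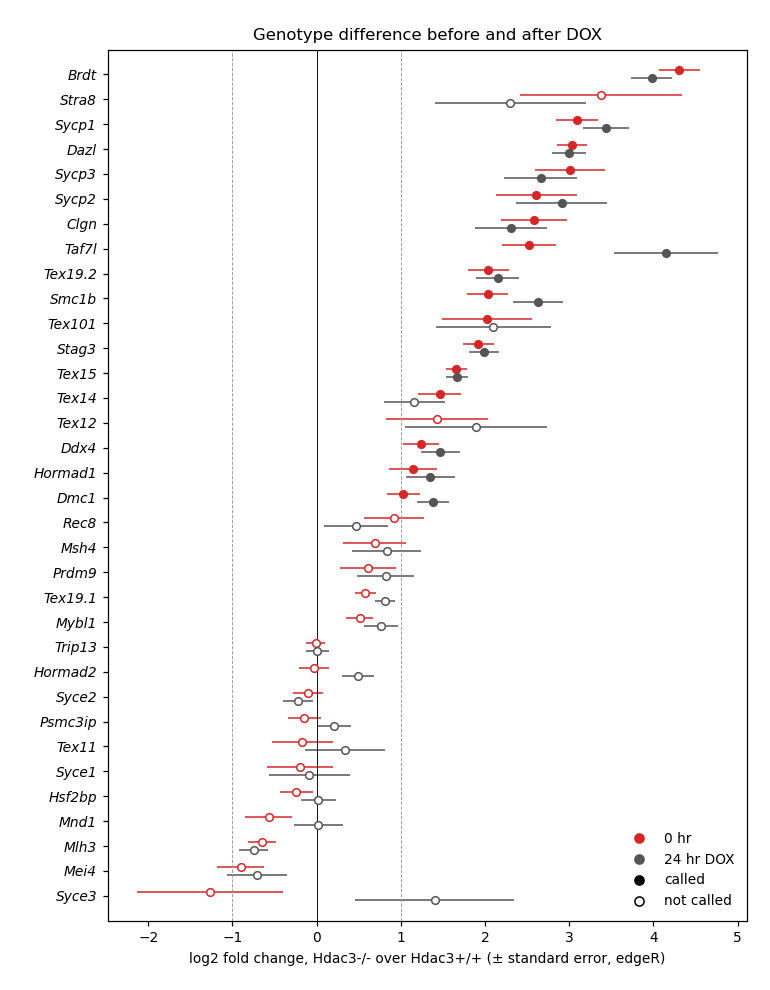
Log2 fold change of Hdac3-/- over Hdac3+/+ (edgeR) with its standard error for the 34 genes tested, at 0 hr (red) and 24 hr of DOX (grey); filled circles are called and open circles are not. Brdt is at 4.31 and 3.98, Trip13 at -0.01 and 0.01, and Stra8 is high but open, with the wide standard errors of 0.962 and 0.897.

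Syce3, Rad21l, Mei1, Spo11 and Meiob had under 10 reads in every one of the 8 samples, and of these Rad21l, Mei1, Spo11 and Meiob stayed off in both genotypes. A count of 0 allowed up to 0.195 to 0.465 CPM (3 counts in a library, counting error only), so changes below that level were not detectable. Syce3, whose transcript is short, reached 2.37 ± 0.45 TPM in Hdac3+/+ and 0.911 ± 0.22 TPM in Hdac3-/- at 0 hr (SD, n = 2 each) on 2 to 5 reads, and so was tested. Its log2 fold change was -1.27 (SE 0.866, adjusted p = 0.376, edgeR) at 0 hr and 1.4 (SE 0.944, adjusted p = 0.373) at 24 hr. The other 4 were not tested. At 0 hr 28 of the 39 genes were above TPM 1 in both Hdac3+/+ samples and 33 in both Hdac3-/- samples, and 12 of the 16 called genes were above TPM 1 in both Hdac3+/+ samples. Most of the called genes were thus present in Hdac3+/+ ESCs.

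Between 0 and 24 hr of DOX, 0 of the 34 genes were called as changed in Hdac3+/+ and 0 in Hdac3-/- (edgeR). Of all genes tested, 0.0501% and 0.0143% were called. No 24 hr sample was free of DOX, so effects of DOX, of Xist induction and of time in culture cannot be told apart. At an unadjusted p under 0.05 there were 4 in Hdac3+/+ (Smc1b, Hormad2, Taf7l and Tex19.1) and 0 in Hdac3-/-. Of all 13965 genes tested, 1014 and 276 had such a p. DESeq2 also gave 4 and 0 of the 34, with 0 of them called in both, and 576 and 128 of all genes. In Dazl the log2 change over 24 hr was -0.02 in Hdac3+/+ and -0.05 in Hdac3-/-, and in Tex15 it was -0.05 and -0.04. In Hdac3+/+, X-linked Taf7l had 22 and 16 reads before DOX and 6 and 0 reads after it (log2 change -2.08, adjusted p = 0.499, edgeR), which became -7.14 without replicate 1 of the 24 hr samples. In Hdac3-/- it had 167 and 83 reads before and 84 and 52 reads after DOX (log2 change -0.44). Without a filter on low counts the change in Hdac3+/+ was called. A change of the genotype difference between 0 and 24 hr was called for 0 of the 34 genes and for 0.0% of all genes. At an unadjusted p under 0.05 there were 0 of the 34 in edgeR and 0 in DESeq2, and 263 and 78 of all genes. For Dazl this difference was -0.03 (SE 0.263) on the log2 scale, for Tex15 0.01 (SE 0.177) and for Taf7l 1.64 (SE 0.829).

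Reads with allele-specific SNPs show from which parental genome the transcripts came. In the 16 called genes, the B6 allele was higher in both Hdac3-/- samples than in both Hdac3+/+ samples at 0 hr in 16, and the Cast allele in 15. Sycp3 was the exception, on 3 and 18 Cast reads summed over each genotype. Some of the others rested on few reads. For Tex101 the Cast order rested on 1 read in replicate 2 of each genotype (0.0907 against 0.093 CPM), a gap from library size alone. Taf7l had 1 and 1 Cast reads in Hdac3+/+ against 7 and 2 in Hdac3-/-. Sycp2 had 0 and 0 B6 reads against 8 and 3. Dazl went from 37 to 480 B6 reads and from 125 to 943 Cast reads (both samples summed). Brdt went from 9 to 185 B6 reads and from 5 to 62 Cast reads, and Sycp1 from 8 to 150 and from 22 to 184. The B6 allele was higher in this way in 22.4% and the Cast allele in 22.1% of all genes tested, and in 85.7% and 84.8% of the 349 genes called higher. The genes were called on totals that include these reads, so the counts for the 16 genes follow in part from the call and are given as a description.

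The B6:Cast ratio could be tested for 23 of the 39 genes, 10 of them called, where each sample at 0 hr had at least 10 allelic reads. With edgeR 0 of the 23 differed between genotypes, against 0.438% of the 10277 genes tested. An unadjusted p under 0.05 was found for 3 of the 23, Rec8, Tex15 and Dazl, and for 869 of all genes tested. Tex15 came closest, with a B6 share of 80.8% and 78.3% in Hdac3+/+ and of 65.0% and 67.9% in Hdac3-/- (log2 ratio change -0.98, SE 0.196, adjusted p = 0.0544, edgeR). Exact Clopper-Pearson intervals at 95% ran from 71.4% to 85.9% over the Hdac3+/+ samples and from 61.6% to 71.5% over the Hdac3-/- samples. It passed without replicate 2 of Hdac3-/- (adjusted p = 0.0153). At 24 hr the B6 share of Tex15 was 80.9% and 83.6% in Hdac3+/+ and 57.7% and 62.2% in Hdac3-/-. The samples at 24 hr come from the same parental line and the same clones, so these shares are not an independent test.

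Several of the genes were skewed to one allele in both genotypes. Stag3 had a B6 share of 89.3% and 97.3% in Hdac3+/+ and of 91.9% and 90.5% in Hdac3-/- at 0 hr, while Mnd1 had 8.0% and 7.0% against 4.0% and 3.6%. Dazl leaned to Cast, with a B6 share of 16.7% and 27.8% in Hdac3+/+ and 32.9% and 34.8% in Hdac3-/- at 0 hr (log2 ratio change 0.79, SE 0.284, adjusted p = 0.446, edgeR). At 24 hr its samples overlapped, with 30.6% and 30.9% in Hdac3+/+ and 30.4% and 32.1% in Hdac3-/-. Trip13 was near balance in all 4 samples, from 46.5% to 54.7%. X-linked Taf7l had 2 and 1 B6 reads and 1 and 1 Cast reads in Hdac3+/+ at 0 hr and was not tested, and 9 of the 39 genes had under 10 allelic reads in every sample.

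**Figure D3:**
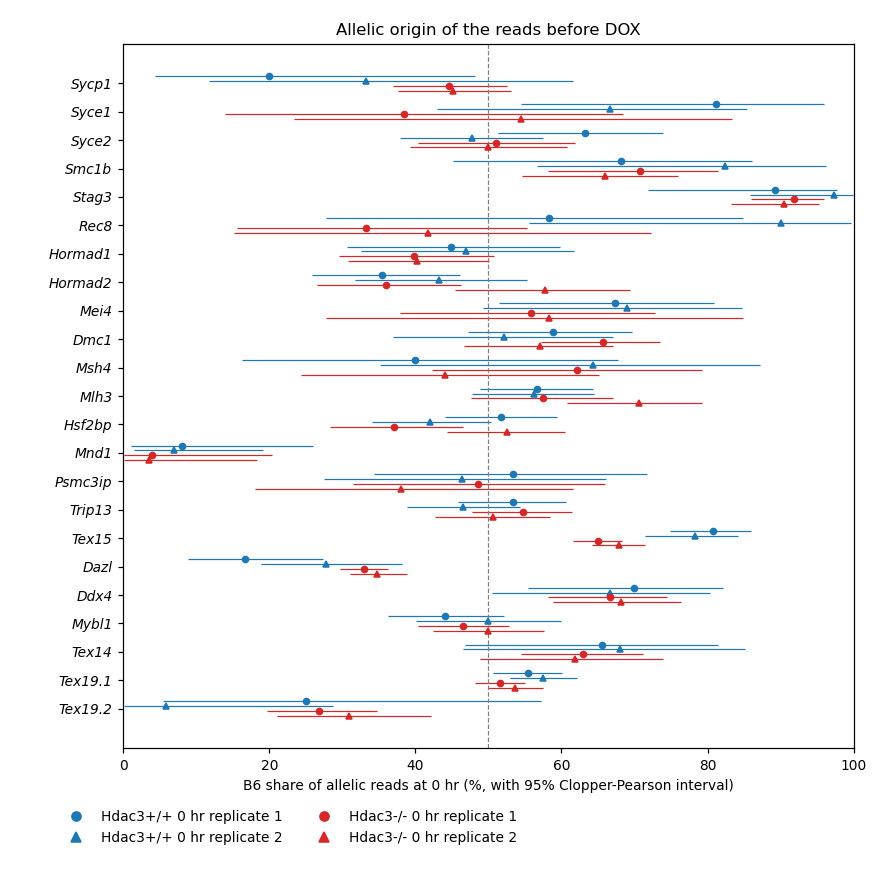
B6 share of the allelic reads in percent at 0 hr, with exact Clopper-Pearson intervals at 95%, for the 23 genes with at least 10 allelic reads in each of the 4 samples; blue is Hdac3+/+ and red Hdac3-/-. The Tex15 points of the genotypes lie apart, with 80.8% and 78.3% against 65.0% and 67.9%, while those of Trip13, Ddx4 and Mybl1 overlap.

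All 4 Hdac3-/- samples were above all 4 Hdac3+/+ samples in the 16 called genes, which held for 16.3% of all genes tested. This follows in part from the call at 0 hr, and at 24 hr 14 of the 16 were called too. The 24 hr samples come from the same parental line and clones, so their order is not independent of that at 0 hr. The levels of the knockout replicates differed. In 7 of the 16 both replicate 1 knockout samples were above both replicate 2 knockout samples (Sycp3, Taf7l, Brdt, Tex14, Tex101, Tex19.2 and Clgn), in 5 the replicate 2 samples were higher (Sycp1, Sycp2, Smc1b, Stag3 and Hormad1), and in Dmc1, Tex15, Dazl and Ddx4 they overlapped. Of all genes tested, 31.8% had both replicate 1 knockout samples above both replicate 2 samples and 29.6% the reverse, so such an order was common. Tex14 in replicate 1 was 1.62 times its value in replicate 2 at 0 hr and 1.99 times at 24 hr. Hormad1 in replicate 1 was 0.55 times its value in replicate 2 at 0 hr and 0.803 times at 24 hr. With 2 samples of each number these ratios have no test, and whether a number marks a clone is not stated in the labels.

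**Figure D4:**
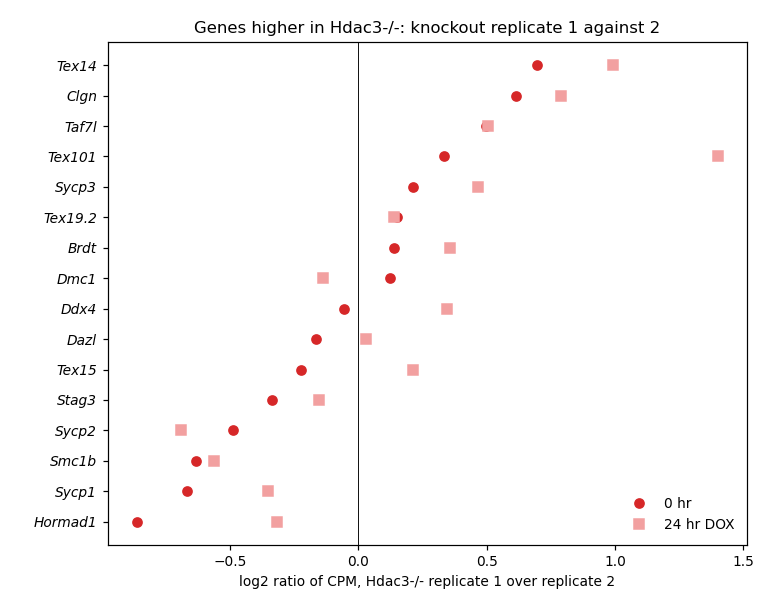
Log2 ratio of CPM between knockout replicate 1 and knockout replicate 2 for the 16 called genes, at 0 hr (circles) and 24 hr of DOX (squares). Tex14, Clgn and Taf7l lie right of 0 and Hormad1, Sycp1 and Smc1b left of it at both times, as in their ratios of 1.62 and 0.55 for Tex14 and Hormad1 at 0 hr.

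Other genes of meiosis were examined by a list of 28 symbols, 24 of which were in the tables and 21 tested. Of these, 4 were higher and 0 lower in Hdac3-/- at 0 hr, where 2.61% and 3.55% of all genes tested were called. The median log2 fold change of the 21 was 0.84. They were Rec114, a partner of Mei4 in break formation (2.93 and 2.99 against 8.84 and 10.2 CPM, log2 fold change 1.69), Hfm1, a helicase of crossover formation (0.813 and 0.454 against 2.53 and 2.79 CPM, 2.04), Zcwpw1, a reader of the marks that PRDM9 sets (1.79 and 3.18 against 5.26 and 9.12 CPM, 1.53), and 4930447C04Rik (5.69 and 7.62 against 11.9 and 16.7 CPM, 1.11). At 24 hr 5 were higher, these 4 and Terb2, a protein of meiotic telomeres (log2 fold change 2.1, adjusted p = 0.0446, edgeR), against 2.34% of all genes tested. Hfm1 passed the filter at 0 hr only through the Hdac3-/- samples and so had to differ. Cntd1, which was not called, also passed only through them and is part of the median. Smc3, the cohesin subunit shared with mitosis, had 387.0 and 394.0 CPM against 396.0 and 398.0 CPM at 0 hr and was not called.

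Spermatid genes had few reads, and 2 of 5 markers of primordial germ cells were called lower in Hdac3-/-. Of 13 spermatid genes, Prm1, Tnp1, Odf1, Akap4 and Spaca1 had 0 reads in all samples, and the whole list summed to 0.731 to 1.3 CPM in Hdac3+/+ and 1.2 to 3.26 CPM in Hdac3-/-. Prm2 had 0 and 1 reads in Hdac3+/+ and 13 and 4 in Hdac3-/- at 0 hr, and 0 and 0 against 6 and 2 at 24 hr. It was the 1 spermatid gene tested at 0 hr, passed the filter only through the Hdac3-/- samples, and was not called (log2 fold change 3.61). Of 14 oocyte and spermatogonia genes, 7 were tested and 0 called at 0 hr, although Sohlh2 and Kit had an adjusted p of 0.009 and 0.0045 with log2 fold changes of 0.75 and 0.68 (edgeR). At 24 hr Sohlh2 was called, at 1.3. Of 5 primordial germ cell markers, all tested, 2 were lower and 0 higher at both times. Of all genes tested, 3.55% were lower at 0 hr and 2.75% at 24 hr. Dppa3 had 83.0 and 78.2 CPM in Hdac3+/+ and 16.3 and 18.6 CPM in Hdac3-/- at 0 hr (log2 fold change -2.21), and Prdm1 18.3 and 14.9 against 4.55 and 6.33 CPM (-1.62). Prdm14, like Dppa3 expressed in these Hdac3+/+ ESCs, had 109.0 and 107.0 CPM in Hdac3+/+ and 154.0 and 135.0 CPM in Hdac3-/- at 0 hr, with all knockout samples above all Hdac3+/+ samples. Its log2 fold change of 0.42 (adjusted p = 0.0374, edgeR) at 0 hr and of 0.35 (adjusted p = 0.0421) at 24 hr passed the p threshold below the fold limit. Tfap2c and Nanos3 had log2 fold changes of -0.63 (adjusted p = 0.0246, edgeR) and -0.83 (adjusted p = 0.145) at 0 hr and were not called.

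Markers of other cells were examined beside the 16 called genes, and not all of them had enough reads to be tested. Of all genes tested at 0 hr, 2.61% were called higher and 3.55% lower. The 5 primitive endoderm markers summed to 12.9 to 15.6 CPM in Hdac3+/+ and 14.6 to 28.4 CPM in Hdac3-/-. Of these, 3 were tested at 0 hr, with Dab2 called higher (log2 fold change 1.11) and Sox7 lower (-1.67). The 5 markers of 2-cell-like cells summed to 6.17 to 9.51 CPM and 0.651 to 5.33 CPM, with 5 tested and 0 called. The 5 fibroblast markers summed to 44.5 to 64.8 CPM and 31.4 to 44.1 CPM, with 2 tested and 0 called. The 4 Sertoli cell markers summed to 3.04 to 4.47 CPM and 4.37 to 5.66 CPM. At 0 hr 2 were tested and 0 called, and at 24 hr 3 were tested and Sox9 was called on few reads. The part of any such cells in the changes was not tested.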

How the data were processed

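RNA was sequenced from 8 samples of mouse ESCs, 2 in each of 4 groups defined by genotype and time of DOX in the labels. The authors prepared rRNA-depleted libraries, removed reads that match rRNA, mapped the rest to mm10 with Tophat (TopHat2 2.1.0 in the submitters' processing notes) and counted reads over exons with strand (featureCounts 1.5.1). The deposited values are raw counts per gene, in all and for each allele. A fraction, the B6 share of allelic reads, was also deposited by the authors and was recomputed here from the counts.

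Total counts, 6940375 to 17125156 per sample, were normalized by TMM and tested with edgeR 4.0.16 in R 4.3.3 (glmQLFTest), after leaving out genes that did not exceed TPM 1 in 2 or more samples (exon lengths of GENCODE M21, GRCm38). The 4 samples at 0 hr were fitted alone, with 2 residual degrees of freedom, and the 24 hr, DOX and interaction contrasts in a fit of all 8 samples, with 4. Allele counts were tested with each sample as its own effect and a B6 term per genotype, on genes with at least 10 allelic reads per sample. Alternatives used DESeq2 1.42.0 (an adjusted p it left missing was kept missing), limma 3.58.1 with voom, other filters, the replicate number as a block, and each sample left out. Figures and counts used Python 3.11.15, pandas 2.3.3, numpy 2.4.6, scipy 1.17.1 and matplotlib 3.10.9. The scripts were tested on simulated counts first. Intervals and limits from counts of 0 cover counting error only, since reads are not independent molecules. Symbols were matched to the annotation directly (23890) or by synonym (285), and 367 had no match. Promoter windows came from a RefSeq table of GRCm38.p6. Members and gene lists were chosen with earlier results of these data known. All 39 genes are named, by role, and other genes where they were called or bear on a result; Sohlh2, Kit and Smc3 were added after their values were seen.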

Additional observations from a re-analysis of the deposited data

How the results depend on the processing

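Of the genes with an absolute log2 fold change above 0.5 between genotypes, 0 changed direction in any alternative fit. The number of the 39 genes called at 0 hr was 14 to 17 with DESeq2, voom and limma, another scaling, other filters or all 8 samples, against 16, and 11 to 17 with 1 sample left out, where the lone sample is assumed to vary like the other group. At 24 hr it was 14 to 17 against 14, and 10 to 16 with 1 sample left out. Between 0 and 24 hr of DOX in Hdac3+/+, 1 gene was called without a filter on low counts, Taf7l (adjusted p = 0.0183, edgeR), against 0. The count of B6:Cast ratios that differ was 0 to 1 with 1 sample left out, 1 without replicate 2 of Hdac3-/- (Tex15). Over all genes the count of such ratios was 45, against 204 and 108 without replicates 1 and 2 of Hdac3-/-, 3 and 6 without replicates 1 and 2 of Hdac3+/+, and 123 with the replicate block. Nothing in the labels ties the replicate number to a shared culture or clone. Deviations of same-numbered samples correlated at 0.699 between the knockout groups and at 0.209 to 0.339 elsewhere over 13965 genes. With the replicate block 17 genes were called at 0 hr (Stra8 added, adjusted p = 0.00552) and 18 at 24 hr (Tex12, Stra8, Tex14 and Tex101 added), and 1 B6:Cast ratio differed (Tex15, adjusted p = 0.0093, edgeR). With the block a change of the genotype difference between 0 and 24 hr was called for 280 of all genes tested, 180 up and 100 down, against 0. It was called for 0 of the 34 genes tested here. An unadjusted p under 0.05 (edgeR) was found for 5 of the 34 and for 1768 of all 13965 genes tested. Without the block these counts were 0 and 263. Over all genes, higher calls at 0 hr were 543 without a filter and 164 to 557 with 1 sample left out, against 349, and lower calls 271 to 872, against 475. At 24 hr they were 552 without a filter, 511 with the block and 123 to 386 with 1 sample left out, against 327 higher, and 584 without a filter and 162 to 467 with 1 left out, against 384 lower. The cause of these shifts was not tested. Between genotypes Tex101, Sycp2, Sycp3, Stra8 and Tex12, each with under 10 reads in at least 1 sample, gained or lost calls. So did Hormad1, Dmc1, Ddx4, Tex14, Clgn, Rec8 and Mei4, with more reads in every sample.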
